A study of Mus musculus with 12 samples.

Results

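The cytochrome P450 genes are described here in normal mouse lung and in mouse lung tumors. Members were chosen by name: every gene of the deposited table whose Ensembl identifier maps to a mouse symbol made of Cyp, a family number, a subfamily letter and a gene number, with 1 gene left out by rule. The table holds 76 such genes among its 30399 rows, out of 93 symbols of this form in the annotation used. Of the 76, 52 had a mean of at least 1 normalized count over the 12 samples and are reported, and the other 24 had lower means. The samples are 5 labelled normal lung and 7 labelled tumor, from a study that made lung cancers in mice by delivering CRISPR/Cas9, a DNA-cutting enzyme directed by a guide RNA, without a virus. The labels give no strain, age, sex, edited gene, clone or pooling for any sample, so a group is known here by its tissue alone. Tumors 3 and 4 share the number 159 in their titles and tumors 5, 6 and 7 share 201, which leaves 4 distinct numbers among the 7 tumors. The titles of tumors 1 and 7 hold the Spanish word for trachea, those of tumors 3 to 6 hold the word for lung, and that of tumor 2 holds neither. Nothing in the labels says that samples came from separate animals, so the p-values measure the spread between these samples only.

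Cytochrome P450 enzymes are haem proteins that insert an oxygen atom into fat-soluble molecules. Most sit in the endoplasmic reticulum and receive electrons from P450 oxidoreductase, while a smaller set sits in mitochondria and receives them from adrenodoxin. Families 1 to 3 act mainly on foreign compounds, family 4 and some family 2 members act on fatty acids and their signalling products, and higher-numbered families act on sterols, bile acids, steroid hormones, vitamin D and retinoic acid. The lung is a site of P450 expression outside the liver, and its club and alveolar type 2 cells are known for enzymes that activate inhaled toxicants. Ligand-activated receptors control many of the genes, among them the aryl hydrocarbon receptor for Cyp1a1 and the constitutive androstane receptor for Cyp2b10.

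The 250 bases before the start site are shown for 6 members on which the results turn: Cyp4b1, Cyp2b10, Cyp2s1 and Cyp1a1, which were lower in tumors, and Cyp46a1 and Cyp27b1, which were higher. They come from RefSeq on build GRCm38.p6 and are read toward the gene, and the build of the deposited table is GRCm39 per the submitters' processing notes. Capitals mark matches, on either strand, to the GC box GGGCGG or to the TATA box TATAAA.
Cyp4b1 (chr4:115647722-115647971, minus strand): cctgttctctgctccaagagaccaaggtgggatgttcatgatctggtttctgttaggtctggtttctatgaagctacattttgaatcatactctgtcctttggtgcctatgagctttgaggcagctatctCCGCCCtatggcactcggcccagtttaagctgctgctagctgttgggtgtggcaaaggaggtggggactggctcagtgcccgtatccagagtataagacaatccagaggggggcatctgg
Cyp2b10 (chr7:25897408-25897657, plus strand): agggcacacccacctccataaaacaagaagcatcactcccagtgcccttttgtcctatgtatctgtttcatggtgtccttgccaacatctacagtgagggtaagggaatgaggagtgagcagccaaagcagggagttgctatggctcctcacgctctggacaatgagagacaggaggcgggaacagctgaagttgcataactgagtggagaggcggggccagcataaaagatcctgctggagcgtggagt
Cyp2s1 (chr7:25816526-25816775, minus strand): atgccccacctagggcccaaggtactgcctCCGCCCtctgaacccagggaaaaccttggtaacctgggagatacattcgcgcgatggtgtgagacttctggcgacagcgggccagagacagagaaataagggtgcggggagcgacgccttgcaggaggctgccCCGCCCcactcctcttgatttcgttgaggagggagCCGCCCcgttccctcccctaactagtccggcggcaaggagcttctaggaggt
Cyp1a1 (chr9:57697363-57697612, plus strand): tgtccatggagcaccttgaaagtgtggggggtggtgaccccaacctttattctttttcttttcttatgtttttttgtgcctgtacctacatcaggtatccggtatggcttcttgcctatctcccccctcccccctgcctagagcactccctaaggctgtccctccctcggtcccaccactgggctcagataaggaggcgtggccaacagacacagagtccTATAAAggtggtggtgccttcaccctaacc
Cyp46a1 (chr12:108334066-108334315, plus strand): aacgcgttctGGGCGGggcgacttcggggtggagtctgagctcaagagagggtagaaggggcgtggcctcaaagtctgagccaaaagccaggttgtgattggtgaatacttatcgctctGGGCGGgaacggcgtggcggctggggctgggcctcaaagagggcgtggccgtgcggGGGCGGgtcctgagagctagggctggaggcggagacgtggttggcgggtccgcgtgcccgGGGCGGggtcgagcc
Cyp27b1 (chr10:127047996-127048245, plus strand): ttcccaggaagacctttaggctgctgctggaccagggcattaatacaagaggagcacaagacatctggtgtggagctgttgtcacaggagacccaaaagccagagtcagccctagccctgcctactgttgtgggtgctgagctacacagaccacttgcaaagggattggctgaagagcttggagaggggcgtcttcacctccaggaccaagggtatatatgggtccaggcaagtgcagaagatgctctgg

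The windows differ in CpG content, the dinucleotide at which mammalian DNA is methylated. The Cyp46a1 window held 23 CpG dinucleotides and 4 GC boxes, the Cyp2s1 window 15 and 3, and the Cyp27b1 window 1 and 0. The observed to expected CpG ratio was 0.926 for Cyp46a1, 0.624 for Cyp2s1 and 0.055 for Cyp27b1. RefSeq windows matched 43 of the 52 reported members. Their median ratio was 0.183, and 6 of 43 (13.95%) reached 0.6, against a median of 0.378 and 34.49% over the 27018 promoters of the table. The median was 0.178 for the 22 matched members called lower and 0.15 for the 7 called higher, and 2 of the former and 1 of the latter, Cyp46a1, reached 0.6. The GC box was present in 14 of the 43 windows (32.56%, against 32.94% of all windows) and the TATA box in 10 (23.26%, against 12.97%). The core TNGCGTG, to which the aryl hydrocarbon receptor binds, occurred in 0 of the 43 and in 4.16% of all windows. A window without these letters says nothing about sites elsewhere.

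The deposited values are normalized counts, that is reads per gene divided by a factor for each sample. Depth was 11126432 to 17032234 gene-assigned reads per normal lung and 13093843 to 24217633 per tumor, so that 3 reads correspond to at most 4.85 normalized counts for normal lungs and 3.57 for tumors. Group labels were checked against cell type markers. The summed level of 8 alveolar type 2 markers was 198690 to 270470 in normal lung and 744 to 3348 in tumors, and that of 4 neuroendocrine markers was 73.4 to 100.1 and 19207 to 86304. The mean log2 level of 4 Y-linked genes was 9.18 to 9.43 in normal lungs 1, 2, 4 and 5 and 9.14 in tumor 1, against 0 in normal lung 3 and 0 to 1.48 in tumors 2 to 7. Y-linked expression thus largely follows the group, and its part in the tumor and normal lung differences can hardly be told apart from that of tissue. A fit with it as covariate rests mainly on normal lung 3 and tumor 1. In bulk tissue, fewer cells of a type and less RNA per cell cannot be told apart.

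P450 genes were called lower in tumors more often than higher. Of the 52 reported members, 25 (48.1%) were called lower and 8 (15.4%) higher, where a call needs a limma adjusted p under 0.05 and a change that is 1 or more on the log2 scale. Over all 23674 genes tested, 24.5% were called lower and 24.0% higher by the same rule. Values of the tumors lay wholly below those of normal lung in 20 members and wholly above them in 6, against 18.4% and 20.1% of all genes tested. The median log2 fold change was -1.18 over the reported members and 0.04 over all genes. Among the 34 members with a mean of at least 10, 19 were called lower and 4 higher (55.9% and 11.8%), against 25.9% and 23.3% of all genes with such a mean. The count tests on the recovered reads of 11 samples leave out tumor 3. There edgeR called 18 members lower and 4 higher of 33 tested, with 20.6% and 25.2% of all genes as background, and DESeq2 called 21 lower and 9 higher, with 19.0% and 22.7%. Members with a mean under 1 were never above 11 reads in a sample. The bile acid enzyme Cyp7a1 had 1 read in all 12 samples together, and Cyp1a2, a close relative of Cyp1a1, had 12, of which 11 were in a single sample.

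**Figure D1:**
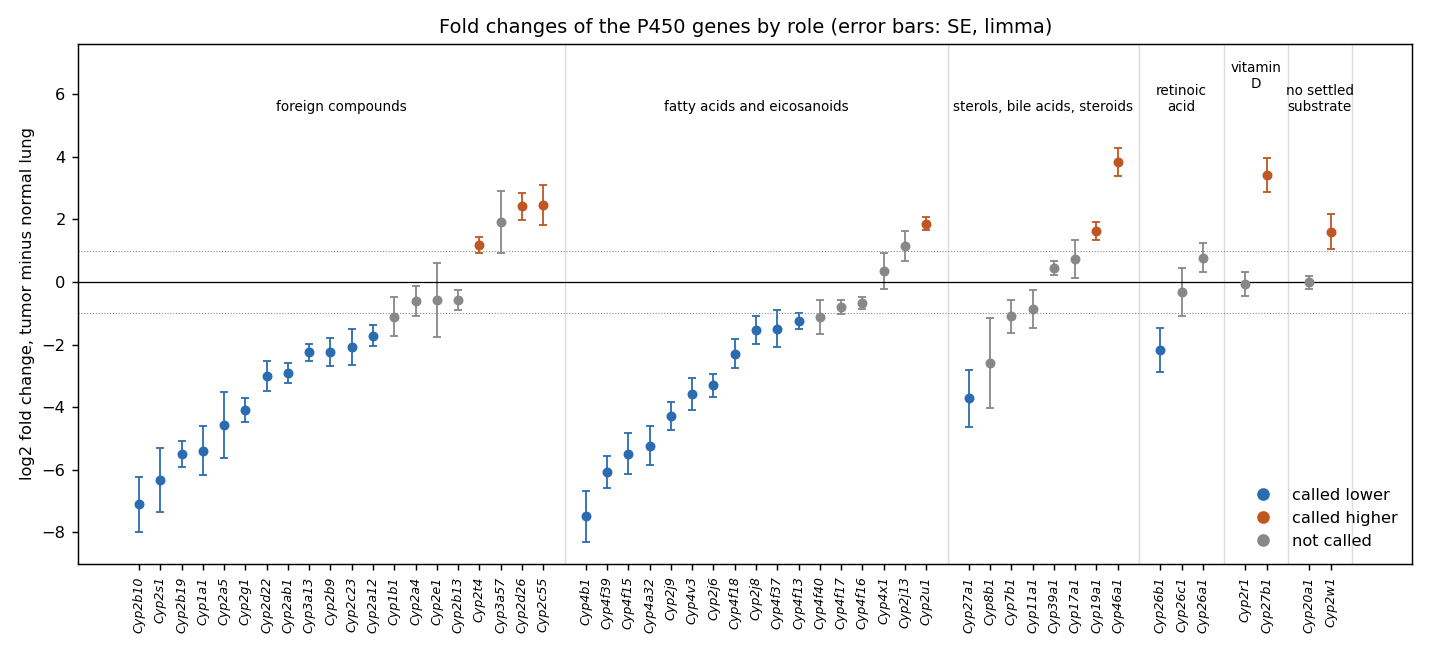
Log2 fold change of tumor over normal lung (y axis, log2(value + 1) scale) for the 52 reported P450 genes, grouped by role along the x axis. Bars are standard errors from limma, dotted lines mark the limit of 1, and 25 genes in blue were called lower and 8 in orange higher.

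The summed level of the 52 members fell from 21311 to 26007 normalized counts in normal lung to 3088 to 9312 in tumors. The sums do not overlap. The fall was mostly that of 3 genes, Cyp4b1, Cyp2s1 and Cyp2b10, which together made up 45.6% to 69.5% of the sum in normal lung and 0.161% to 10.5% in tumors. Per kilobase of exon (GENCODE M21), Cyp4b1 was the highest member in normal lung at 3268 ± 821 normalized counts per kilobase (SD, n = 5), followed by Cyp2b10 at 1203 ± 229 and Cyp2s1 at 886 ± 193, and the ranges of Cyp2b10 and Cyp2s1 overlap. In tumors the order per kilobase was led by Cyp20a1 at 231 ± 85.4 (SD, n = 7) and Cyp39a1 at 206 ± 67.5, whose ranges also overlap.

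Cyp4b1, which oxidises fatty acids and activates pneumotoxic furans in the lung, had the largest change of the family in limma on log2(value + 1). Its normalized counts were 6252, 7832, 5784, 10397 and 6601 across normal lungs 1 to 5 and 113, 23.8, 0.991, 59.3, 60.7, 69.4 and 113 across tumors 1 to 7. Every tumor lay far under every normal lung, and tumor 3, with 1 read, was the lowest. Cyp4b1 (ENSMUSG00000028713) fell by 7.49 on the log2 scale (SE 0.81, limma adjusted p = 3.86e-06), and the tumor mean was 0.853% of the normal mean. Without tumor 3 the log2 fold change was -6.77, and edgeR put it at -6.55. In the count tests Cyp1a1 fell further than Cyp4b1, at -6.70 in edgeR and -6.85 in DESeq2, where Cyp4b1 was at -6.62. With a pseudocount of 0.1 in limma, Cyp4b1 and Cyp2b10 were both at -7.63.

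Roles of the members were assigned by gene symbol, and no substrate was measured. Among enzymes for foreign compounds, 12 of the 20 reported members were called lower and 3 higher, against 24.5% and 24.0% of all genes tested. Their median log2 fold change was -2.16. Cyp2b10, the phenobarbital-inducible enzyme, read 2243, 2937, 1893, 3061 and 2568 across normal lungs 1 to 5 and 34.8, 4.77, 0, 19.8, 67.1, 32.3 and 69.2 across tumors 1 to 7, in normalized counts. The groups lay far apart, and tumor 3 had no read. Cyp2b10 fell by 7.10 on the log2 scale (SE 0.88, limma adjusted p = 1.30e-05). Its log2 fold change was -6.40 without tumor 3 and -5.95 in edgeR. Cyp2s1, an epithelial enzyme of the airway and gut, read 5095, 5402, 3298, 4606 and 3465 across normal lungs 1 to 5 and 90.5, 5.96, 3.97, 42.2, 54.2, 197 and 800 across tumors 1 to 7, in normalized counts. Tumors were widely spread without reaching normal lung, and tumor 7 was the highest. The log2 fold change of Cyp2s1 was -6.33 (SE 1.02, limma adjusted p = 1.24e-04), and -6.99 without tumor 7. It was -4.34 in edgeR and -4.45 in DESeq2.

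Cyp2d22, the mouse relative of a major human drug-metabolising enzyme, was the steadiest of these genes in normal lung. It read 1363, 1413, 1344, 1418 and 1484 across normal lungs 1 to 5 and 86.7, 261, 53.5, 290, 118, 166 and 690 across tumors 1 to 7, in normalized counts. Tumor 7 kept 49.1% of the normal mean, and limma put the log2 fold change at -3.00 (SE 0.49, adjusted p = 1.40e-04). Cyp2a5, known for nicotine and coumarin oxidation, was called lower with overlapping groups: 95.9 to 374 in normal lung, and 204, 1.19, 0.991, 10.8, 0, 14.2 and 4.48 in tumors 1 to 7. Tumor 1 alone stood in the normal range, and the call (-4.57, limma adjusted p = 0.00210) was lost in edgeR (-2.15, adjusted p = 0.132) and in DESeq2 (-2.24, adjusted p = 0.0799). The log2 fold change was -5.38 without tumor 1. The remaining members called lower in this group ran from Cyp2b19, at 61.5 ± 17.2 against 0.594 ± 1.19, to Cyp2a12, which rested on 11 reads in normal lung and 2 in tumors. Cyp3a13, of the family best known for drug oxidation, fell from 115 ± 15.2 to 24.1 ± 6.39 normalized counts.

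Cyp1a1, which oxidises polycyclic aromatic hydrocarbons and is the standard target of the aryl hydrocarbon receptor, was uneven in normal lung. It read 104, 90.3, 1760, 260 and 63.2 across normal lungs 1 to 5 and 6.33, 0, 8.92, 5.39, 3.24, 4.04 and 3.84 across tumors 1 to 7, in normalized counts. Normal lung 3 stood far above the other normal lungs, and the groups did not overlap. Limma put the log2 fold change at -5.39 (SE 0.78, adjusted p = 5.04e-05), and at -4.59 without normal lung 3. Cyp1b1, of the same family and under the same receptor, differed in its pattern. It read 499, 577, 648, 360 and 255 across normal lungs 1 to 5 and 105, 279, 86.3, 550, 46.1, 250 and 948 across tumors 1 to 7, in normalized counts. The groups overlapped, with tumor 7 above every normal lung. Its log2 fold change of -1.11 (SE 0.64, limma adjusted p = 0.146) was not called, and was -1.47 without tumor 7, where it was called (adjusted p = 0.0295). The receptor gene itself, Ahr, fell by 4.03 on the log2 scale (SE 0.55, limma adjusted p = 2.81e-05), from 2430 ± 239 (SD, n = 5) to 224 ± 252 (SD, n = 7), while its partner Arnt had 1562 ± 212 and 1406 ± 98.7.

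Cyp2e1, which oxidises ethanol and other small molecules, was not called and varied widely from tumor to tumor. It read 107, 61.3, 210, 123 and 243 across normal lungs 1 to 5 and 76.6, 48.8, 5.95, 360, 8.09, 260 and 1964 across tumors 1 to 7, in normalized counts. Tumors 4, 6 and 7 lay above every normal lung, and tumors 2, 3 and 5 below. The log2 fold change was -0.58 in limma (SE 1.18, adjusted p = 0.686) and 1.73 in edgeR (adjusted p = 0.177), so no direction can be given.

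Among the 17 reported enzymes of fatty acids and eicosanoids, 11 were called lower and 1 higher, against 24.5% and 24.0% of all genes tested. Their median log2 fold change was -1.53. After Cyp4b1, the largest falls were those of Cyp4f39, which makes the very long hydroxy fatty acids of the skin barrier, Cyp4f15 and Cyp4a32. Cyp4f39 read 201, 160, 191, 181 and 106 normalized counts across normal lungs 1 to 5 and at most 5.70 in any tumor. Limma put the log2 fold change at -6.07 (SE 0.51, adjusted p = 3.06e-07). Cyp4f15 had 147 to 199 in normal lung and 0 to 13.9 in tumors, with a log2 fold change of -5.48. Cyp4a32 had 142 to 236 and 0 to 13.9, with -5.23. In all 3 genes, several tumors were at or under the level of 3 reads.

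Of 4 reported members of the Cyp2j subfamily, known for the oxidation of arachidonic acid, 3 were called lower, against 24.5% of all genes tested. The low Cyp2j13, at 0.774 ± 1.73 and 2.39 ± 1.64, was not called. Cyp2j6 read 246, 282, 249, 258 and 308 across normal lungs 1 to 5 and 36.1, 31.0, 9.91, 29.6, 21.0, 18.9 and 62.8 across tumors 1 to 7, in normalized counts. Limma put the log2 fold change at -3.30 (SE 0.37, adjusted p = 4.82e-06), with tumor 7 the highest tumor. Cyp2j9 had 98.0 to 120 in normal lung and 1.19 to 11.5 in tumors, with -4.27 (SE 0.44, limma adjusted p = 2.40e-06). Cyp4v3, a fatty acid hydroxylase whose human counterpart is mutated in a corneal and retinal dystrophy, read 564, 554, 486, 377 and 408 across normal lungs 1 to 5 and 31.0, 23.8, 11.9, 40.4, 29.1, 54.6 and 199 across tumors 1 to 7, in normalized counts. Tumor 7 again was the highest tumor and kept 41.7% of the normal mean, and limma put the log2 fold change at -3.59 (SE 0.51, adjusted p = 4.54e-05).

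The Cyp4f genes did not all fall by as much. Cyp4f18, which inactivates leukotriene B in mouse neutrophils, had 226 ± 56.2 in normal lung and 54.7 ± 37.8 in tumors and was called lower (-2.29, limma adjusted p = 8.85e-04). Cyp4f13 was called lower at -1.24 with overlapping groups. Cyp4f17 read 576, 327, 454, 327 and 493 across normal lungs 1 to 5 and 247, 222, 175, 299, 298, 177 and 330 across tumors 1 to 7, in normalized counts. Its log2 fold change of -0.80 (SE 0.22, limma adjusted p = 0.00681) was smaller than the limit of 1. The same was so for Cyp4f16, at 487, 491, 649, 554 and 529 against 385, 207, 279, 339, 410, 419 and 406, with -0.66 (SE 0.19, limma adjusted p = 0.00931) and groups that did not overlap.

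Cyp2u1, which hydroxylates long-chain fatty acids and is known from brain and thymus, was the member of this role that rose. It read 77.4, 68.8, 98.5, 73.4 and 93.1 across normal lungs 1 to 5 and 412, 353, 307, 262, 332, 232 and 232 across tumors 1 to 7, in normalized counts. Every tumor was above every normal lung. Limma put the log2 fold change at 1.86 (SE 0.20, adjusted p = 4.21e-06). An exon of Cyp2u1 overlaps 4930534D22Rik on the opposite strand. Use of the strand in counting is not given in the sources used here, so the count of Cyp2u1 is uncertain.

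**Figure D2:**
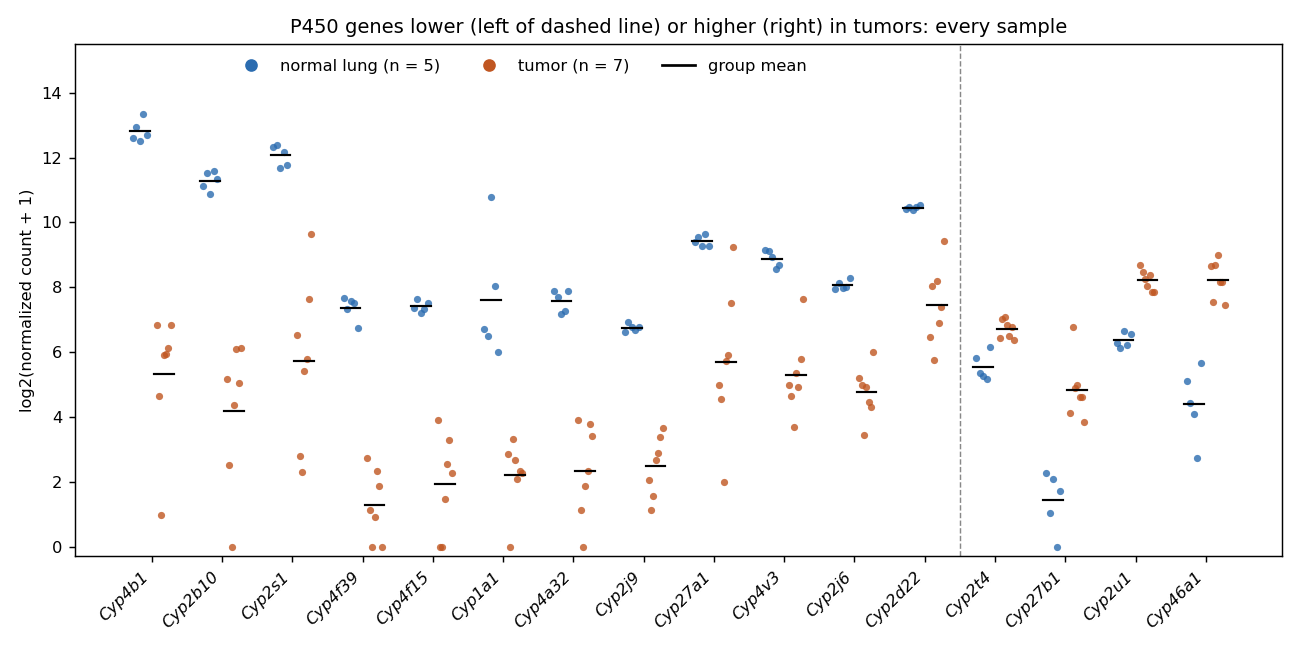
Log2(normalized count + 1) in each of the 5 normal lungs (blue) and 7 tumors (orange) for the 12 named members called lower (left of the dashed line) and 4 of those called higher (right), with group means as bars. In none of these 16 genes do the groups overlap, which was a condition of choice for all but Cyp27b1. Cyp27a1 in tumor 7 comes closest to normal lung.

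Members that act on sterols, bile acids and steroids were called higher in 2 of 8 cases and lower in 1, against 24.0% and 24.5% of all genes tested. Cyp46a1, the enzyme by which neurons export cholesterol, had the largest rise of the family in limma on log2(value + 1). The rise of Cyp27b1 was larger with a pseudocount of 0.1 (4.41 against 3.91), in edgeR (4.12 against 3.67) and in DESeq2 (4.14 against 3.63). Cyp46a1 read 33.5, 20.4, 16.2, 5.64 and 49.4 across normal lungs 1 to 5 and 400, 185, 412, 513, 285, 284 and 175 across tumors 1 to 7, in normalized counts. No tumor reached down to the normal lungs, and tumor 7 was the lowest. Cyp46a1 (ENSMUSG00000021259) rose by 3.83 on the log2 scale (SE 0.46, limma adjusted p = 8.72e-06). Its promoter, printed above, is the most CpG-rich of the 6 shown. Cyp19a1, the aromatase that makes oestrogens, was also called higher, but normal lung gave it no read and tumors 1.19 to 4.04 normalized counts, or 20 reads in all, which is too few for a fold.

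Cyp27a1, the mitochondrial sterol hydroxylase of bile acid synthesis, was lower in tumors with 1 near exception. It read 676, 742, 620, 790 and 617 across normal lungs 1 to 5 and 30.4, 22.6, 2.97, 52.1, 59.1, 183 and 609 across tumors 1 to 7, in normalized counts. Tumor 7 lay just under the lowest normal lung. Limma put the log2 fold change at -3.72 (SE 0.91, adjusted p = 0.00298), and edgeR put it at -2.0 (adjusted p = 0.0381). It was -3.10 without tumor 3 and -4.31 without tumor 7. Cyp8b1, the enzyme that sets the balance of bile acids, read 46.4, 52.7, 54.9, 57.8 and 60.9 across normal lungs 1 to 5 and 0, 1.19, 0, 0.898, 18.6, 138 and 497 across tumors 1 to 7, in normalized counts. Tumors thus stood on both sides of a narrow normal range, tumors 1 to 5 below and tumors 6 and 7 above. Its log2 fold change of -2.59 (SE 1.44, limma adjusted p = 0.135) was not called, although it was called at -3.55 without tumor 7 (adjusted p = 0.0136). Cyp39a1, an oxysterol hydroxylase, read 368, 486, 418, 518 and 416 across normal lungs 1 to 5 and 477, 498, 627, 685, 1001, 728 and 377 across tumors 1 to 7, in normalized counts, and was not called (0.45, SE 0.22, limma adjusted p = 0.0889). Cyp7b1, which breaks down the oxysterol ligands of immune cell migration, had 199 ± 59.8 and 116.9 ± 73.0 and was not called either (-1.09, limma adjusted p = 0.0879). It was called lower with same-numbered tumors averaged, with Y-linked expression as covariate and without tumor 4.

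Of the 3 enzymes that break down retinoic acid, Cyp26b1 was the only one with a mean of at least 10. It read 145.7, 316, 3201, 364 and 293 across normal lungs 1 to 5 and 47.5, 152, 33.7, 104, 75.2, 123 and 309 across tumors 1 to 7, in normalized counts. Normal lung 3 was again far above the others, as for Cyp1a1, and the groups overlapped. Cyp26b1 was called lower at -2.18 (SE 0.69, limma adjusted p = 0.0144), and at -1.46 without normal lung 3 (adjusted p = 0.0303). Cyp26a1 and Cyp26c1, at 2.10 ± 0.850 and 4.92 ± 4.12 in normal lung and 5.08 ± 3.57 and 4.0 ± 4.83 in tumors, were not called.

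The vitamin D enzymes went different ways. Cyp27b1, which makes the active hormone and is best known in kidney, read 3.87, 1.08, 3.23, 0 and 2.30 normalized counts across normal lungs 1 to 5, none above the level of 3 reads, and 16.5, 110, 28.8, 30.5, 23.5, 23.6 and 13.4 in tumors 1 to 7. The groups did not overlap, and tumor 2 was the highest. The fitted rise was 3.41 on the log2 scale (SE 0.54, limma adjusted p = 1.07e-04), resting on 8 reads in normal lung and 266 in tumors. Cyp2r1, which carries out the preceding step in the liver, read 33.5, 30.1, 30.7, 32.4 and 17.2 across normal lungs 1 to 5 and 10.8, 16.7, 34.7, 35.0, 34.0, 31.0 and 41.0 across tumors 1 to 7, in normalized counts, with a log2 fold change of -0.07 (SE 0.37, limma adjusted p = 0.882). Cyp24a1, which degrades the hormone, had 12 reads over all samples. The vitamin D receptor gene Vdr had 301 ± 37.1 and 199 ± 141 and was not called (-1.0, limma adjusted p = 0.109).

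Cyp20a1, for which no substrate is settled, was among the steadiest members. It read 509, 466, 473, 525 and 585 across normal lungs 1 to 5 and 543, 959, 422, 463, 483, 424 and 408 across tumors 1 to 7, in normalized counts. Only tumor 2 departed from the rest, and limma put the log2 fold change at -0.01 (SE 0.21, adjusted p = 0.967). The other members called higher were low. Cyp2w1, Cyp2d26 and Cyp2c55 rested on 1, 5 and 7 reads in the 5 normal lungs and 37, 83 and 142 in the 7 tumors. The call of Cyp2w1 was lost with same-numbered tumors averaged and with Y-linked expression as covariate. Cyp2t4 read 55.5, 39.8, 37.1, 35.3 and 70.1 across normal lungs 1 to 5 and 86.1, 130, 134, 114, 89.0, 109 and 82.0 across tumors 1 to 7, in normalized counts, with 1.17 (SE 0.26, limma adjusted p = 0.00138). Its exons overlap those of Egln2, a gene of the other strand, so this count is uncertain too.

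P450 genes lie in clusters of related copies, and the calls are given here by cluster beside the 48.1% of reported members and 24.5% of all genes that were called lower. In the cluster that runs from Cyp2s1 to Cyp2t4, 7 of 10 reported members were called lower (Cyp2s1, Cyp2b10, Cyp2b9, Cyp2b19, Cyp2g1, Cyp2a5 and Cyp2a12), 2 were not called and Cyp2t4, at its end, was called higher. In the Cyp4f cluster 4 of 7 were called lower and 0 higher, in the Cyp2j cluster 3 of 4 and 0, and in the cluster with Cyp4b1 and Cyp4a32 2 of 3 and 0. Cyp2d22, called lower, shares a cluster with Cyp2d26, called higher, and Cyp1a1, called lower, with Cyp11a1, which was not called. Among these calls, that of Cyp4f37 was lost with equal totals, with a pseudocount of 0.1, in DESeq2 and without any 1 of normal lungs 1 to 4 or tumors 1 to 5, and that of Cyp2j8 with Y-linked expression as covariate. Exons of Cyp2s1, Cyp4f18 and Cyp4v3 also overlap those of another listed gene. Clusters were runs of members with gaps of at most 500 kb, and their copies are alike enough for reads to be shared, so values of single members of the Cyp2a, Cyp2b, Cyp2c, Cyp2d, Cyp2j, Cyp3a, Cyp4a and Cyp4f subfamilies are uncertain.

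Tumor 7 held the highest tumor value in 11 of the 25 members called lower, tumor 1 in 7, and the others in 1 to 3 each. Tumors 1 and 7 are those titled trachea and had the most gene-assigned reads, 23980583 and 24217633. The share of all genes highest in tumor 7 was not computed. Tumor 3 held the lowest in 13. The summed level of the 52 members was 9312 in tumor 7 and at most 4972 in the other tumors. Marker sums of 5 other cell types were also highest in tumor 7, and that of the neuroendocrine markers was lowest there, at 19207 against 27125 to 86304 in the other tumors. The summed level of 5 endothelial markers was 4556 in tumor 7 and 701 to 2760 in the others, against 54821 to 68035 in normal lung. The summed level of 5 fibroblast markers was 21698 there and 2187 to 13714 in the other tumors, against 7672 to 16522 in normal lung. For 4 macrophage markers it was 2845 in tumor 7 and 223 to 941 in the others, against 1874 to 4220, and for 3 heart muscle markers 24646 against 109 to 1503 in the others and 73.4 to 3078 in normal lung. For 5 adipocyte markers, a list added after the values were seen, it was 10109 in tumor 7, 18.8 to 1353 in the others and 363 to 2090 in normal lung. Sums of lung epithelial markers were not highest in tumor 7. Club cell markers summed to 46.1 in tumor 7 and 1575 in tumor 1, against 79166 to 206670 in normal lung. In tumor 7 alveolar type 2 markers summed to 1017, of which Abca3 made up 918. Alveolar type 1 markers summed to 1385 there and up to 2615 in the other tumors, and ciliated cell markers to 804 and up to 2158. Among single markers of these lists, Hopx (446), Pdpn (216) and Napsa (67.9) had their highest tumor value in tumor 7. Of 4 hepatocyte markers, 3 (Ttr, Apoa1 and Apoa2) were called higher in tumors and 1, Alb, lower. Over all genes tested, 24.0% were called higher and 24.5% lower. Alb was at 0 in tumor 7 and in all but 1 of the tumors, and the tumor sums of 46.5 to 3274 were mostly Ttr. The part of these other cells in the P450 levels of tumor 7 was not tested.

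**Figure D3:**
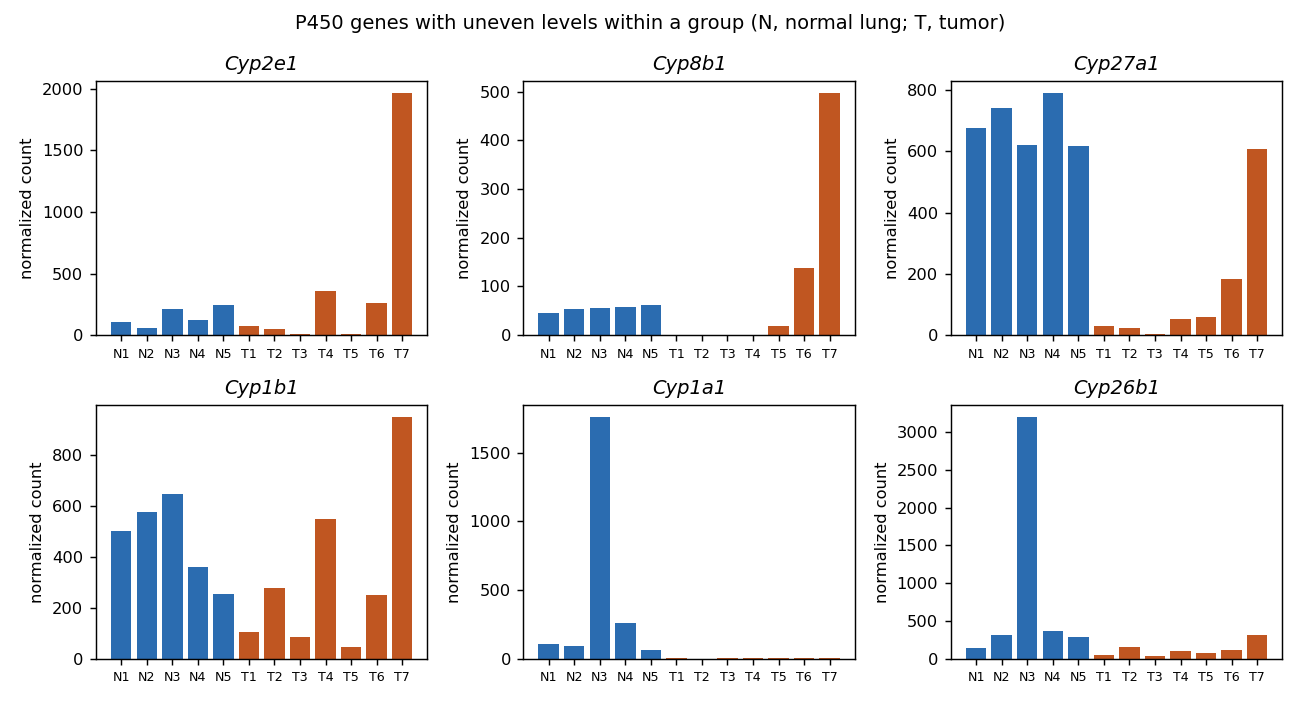
Normalized counts (y axis, linear from 0) in normal lungs N1 to N5 and tumors T1 to T7 for 6 P450 genes with uneven levels within a group. Cyp2e1, Cyp8b1 and Cyp1b1 peak in tumor 7 and Cyp1a1 and Cyp26b1 in normal lung 3, at 1760 and 3201.

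Normal lung 3 was also the single normal lung without Y-linked expression. Its macrophage markers summed to 4220, the highest of the normal lungs, with Marco at 446 against 12.9 to 136 in the others. Its adipocyte markers also had the highest sum of the normal lungs, 2090 against 363 to 1320. Ch25h, which makes an oxysterol in stimulated macrophages, was 560 there and 80.5 to 169 in the other normal lungs. Its value of Ahr was 2180, the lowest of the normal lungs. Its Ahrr, a target and repressor of the aryl hydrocarbon receptor, was 29.1 against 16.9 to 20.6 in the other normal lungs. Tiparp, listed with Ahrr among the regulators of P450 genes, was 871, inside the range of 693 to 910 in the other normal lungs. The part of sex, macrophages or other cells in the Cyp1a1 and Cyp26b1 levels of this sample was not tested.

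The genes that serve P450 enzymes were fixed as lists with earlier results of these data known. Of 9 electron donors and partners in the table, 4 were called lower and 1 higher, against 24.5% and 24.0% of all genes tested. Por, the reductase that feeds most endoplasmic P450 enzymes, was called lower. The level of Por fell from 5216 ± 1605 (SD, n = 5) to 1023 ± 296 (SD, n = 7). On the log2 scale Por changed by -2.35 in limma (SE 0.22, adjusted p = 1.13e-06). Cyb5a, the accessory cytochrome b, fell from 3197 ± 784 to 339 ± 314 (-3.73), and its reductase Cyb5r3 from 13391 ± 2331 to 5333 ± 1336 (-1.36). The mitochondrial pair divided. Fdx1, adrenodoxin, fell from 746 ± 156 to 278 ± 49.1 (-1.42), while Fdxr, its reductase and a known p53 target, rose from 200 ± 26.4 to 474 ± 123 (1.21, SE 0.20, limma adjusted p = 1.38e-04). Cyb5b, Cyb5r1, Pgrmc1 and Pgrmc2 had log2 fold changes of -0.78, -0.54, -0.40 and -0.12 and were not called.

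**Figure D4:**
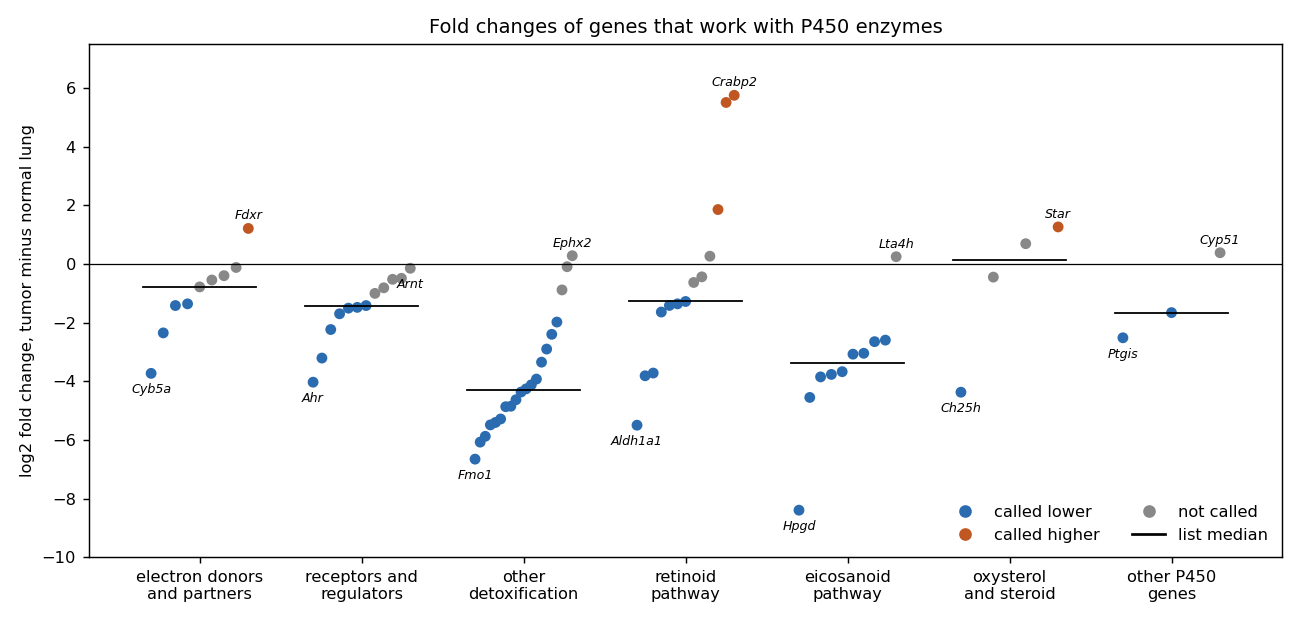
Log2 fold change of tumor over normal lung (y axis) for genes of 7 lists that work with P450 enzymes, with each gene a point, blue when called lower, orange when called higher and grey when not called, and the list median as a bar. Detoxification and eicosanoid genes lie almost wholly below 0, and Crabp1 and Crabp2 stand out above it.

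Of 12 tested receptors and regulators of P450 genes, 7 were called lower and 0 higher, against 24.5% and 24.0% of all genes tested. The largest falls were those of Ahr, Nr1h3, the oxysterol receptor of macrophages (-3.21, SE 0.42), and Nfe2l2, the regulator of the oxidative stress response (-2.23, SE 0.29). Nr1i3, the receptor that controls Cyp2b10, had a mean of at most 1.44 in either group and was not tested. Among 20 other detoxification genes, 17 were called lower and 0 higher, against the same shares of all genes. Their median log2 fold change was -4.31. Fmo1, a flavin monooxygenase, fell from 8947 ± 1619 to 179 ± 267 (-6.65), Ces1d, a carboxylesterase, from 3779 ± 695 to 124 ± 174 (-6.07), and Aox3, an aldehyde oxidase, from 1768 ± 241 to 48.1 ± 51.3 (-5.87).

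In the retinoid pathway 7 of 13 genes were called lower and 3 higher, against 24.5% and 24.0% of all genes tested. Aldh1a1, which makes retinoic acid, fell from 8771 ± 1512 to 220 ± 128 (-5.49, SE 0.34), whereas the binding proteins Crabp1 and Crabp2 rose by 5.51 and 5.75 on the log2 scale, from 7.09 ± 4.20 to 596 ± 404 and from 2.17 ± 2.73 to 150 ± 129. The groups overlapped for Crabp1, with tumor 2 at 8.34 inside the normal range, and did not for Crabp2. Of 10 eicosanoid genes 9 were called lower and 0 higher, against the same shares of all genes. The largest falls were those of Hpgd, which inactivates prostaglandins (-8.39, SE 0.93), Alox12 (-4.55) and Alox5 (-3.85). Of 4 oxysterol and steroid genes, Ch25h was called lower (-4.37) and Star, the carrier of cholesterol into mitochondria, was called higher (1.26, SE 0.21). Among P450 enzymes with other names, the prostacyclin synthase Ptgis (-2.51) and the thromboxane synthase Tbxas1 (-1.66) were called lower, and Cyp51, the cholesterol synthesis enzyme found in all tissues, had 914 ± 158 and 1228 ± 353 and was not called (0.38, limma adjusted p = 0.136).

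Markers of lung cell types were called by the same rule, by which 24.5% of all genes tested were lower. All 3 club cell, 8 alveolar type 2, 5 alveolar type 1 and 5 endothelial markers were called lower, with median log2 fold changes of -7.79, -9.49, -5.24 and -5.07. All 4 macrophage markers were called lower too, as were 3 of 5 ciliated cell markers and 1 of 5 fibroblast markers. Scgb1a1, the defining club cell gene, averaged 126210 ± 51598 normalized counts over the normal lungs against 239 ± 250 over the tumors, and Sftpc, the defining alveolar type 2 gene, 76365 ± 22531 against 200.2 ± 235. The part of these cells in the P450 differences was not tested.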

How the data were processed

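Poly-A RNA of 5 normal lungs and 7 tumors was sequenced as paired ends. The submitters' processing notes name featureCounts, DESeq2 and build GRCm39, without versions. The aligner, annotation release and use of the strand are not given in the sources used here. What the authors deposited is a normalized count signal, and in every column 100% of values were whole multiples of the smallest step within 0.01, which is the worth of 1 read. Reads recovered in this way for 11 samples were used in the count tests. Tumor 3 was left out there because its size factor, 1.01, makes its low values nearly whole numbers already, so that the recovery could not be checked independently. Its read numbers in the text assume that factor.

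Symbols came from GENCODE M21 (29982 of 30399 identifiers). Genes whose mean reached 1 (23674) entered limma 3.58.1 in R 4.3.3 as log2(value + 1), by lmFit and eBayes with a trend, with Benjamini-Hochberg adjustment over all of them. Calls were made at an adjusted p under 0.05 with a change of 1 or more on the log2 scale. For low genes the added 1 can shrink the fold change, as for Cyp27b1, at 3.41 against 4.41 with a pseudocount of 0.1. Each fold change is a difference of mean log2 values, so it can differ from the ratio of the means. For Cyp8b1 it was -2.59, with means of 54.6 in normal lung and 93.7 in tumors. edgeR 4.0.16 (quasi-likelihood, TMM) and DESeq2 1.42.0 were alternatives. All 3 tools were tested on simulated data. Named members are those called with separate groups and a mean of at least 100 in a group (the 12 largest each way), those not called with a mean of at least 200, retinoid and vitamin D members with a mean of at least 10, and the 5 with the largest log2 SD over tumors among those with a mean log2 value of at least 4. Members outside this rule are given in brief. For pathway lists, all electron donors and other P450 genes and the 3 largest changes of other lists are named, and further genes were chosen after their values were seen. Listed genes absent from the table were not analysed here. The members and lists were chosen with earlier results of these data known. Replicate numbers are names given in accession order, with no pairing. Alternatives were other scalings, filters and pseudocounts, the count tests, tumors that share a title number averaged or correlated, tumors titled trachea left out, Y-linked level as a covariate, and each sample left out in turn. Python 3.11.15, pandas 2.3.3 and matplotlib 3.10.9 were used for summaries and figures.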

Additional observations from a re-analysis of the deposited data

Results flagged for a closer look

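The highest and lowest sample of each group was set against the rest for the 26 named members, in 52 groups. In 5 of them the gap to the nearest sample passed Dixon's 95% critical value, where chance gives about 1 in 20, or 2.6. Tumor 2 accounted for 3 of them: its Cyp1a1 was 0 against 3.24 to 8.92 in the other tumors, its Cyp20a1 was 959 against 408 to 543, and its Cyp27b1 was 110 against 13.4 to 30.5. Tumor 3 had the lowest Cyp4b1, 0.991 against 23.8 to 113. Normal lung 5 had the lowest Cyp2r1, 17.2 against 30.1 to 33.5. These gaps were measured on the log2(value + 1) scale, where the low Cyp1a1 values are under the level of 3 reads or near it. The rate of 1 in 20 holds for genes not chosen by their values. The named members were chosen from these values and share the same samples, so setting 5 against 2.6 is no test.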

How the results depend on the processing

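The count of members called higher was 8. It was 4 with a mean of at least 10 and 4 in edgeR, where Cyp19a1, Cyp2c55, Cyp2d26 and Cyp2w1 were under the filter and not tested, and 7 to 9 under the other alternatives. The count called lower was 25, with 18 in edgeR, 19 with a mean of at least 10 and 21 to 27 under the others, and 23 to 28 with each sample left out in turn. The 28 came without tumor 7, which added Cyp11a1, Cyp1b1 and Cyp8b1. Of 596 recomputed log2 fold changes of the 26 named members, 564 kept their direction and their side of the threshold. All 25 that changed direction were of members not called. Cyp20a1 was 0.19 with equal totals, 0.18 in edgeR, 0.12 in DESeq2, 0.15 with same-numbered tumors averaged, 0.051 with them correlated, 0.031 without the tumors titled trachea, 0.058 with the Y-linked covariate, and -0.16 to 0.041 with each sample left out. Cyp2e1 was 1.73 in edgeR, 1.62 in DESeq2, 0.18 with averaged tumors, and -1.33 to 0.031 with each sample left out. Cyp2r1 was 0.056 with quantile normalization, 0.13 with equal totals, 0.051 in edgeR, 0.059 without the tumors titled trachea, and -0.24 to 0.14 with each sample left out. Cyp8b1 was 1.12 in edgeR and 1.02 in DESeq2, but was called lower with averaged tumors (-3.43), without the tumors titled trachea (-3.10) and without tumor 7. Cyp2a5 lost its call in edgeR, DESeq2 and with the Y-linked covariate (-2.71, limma adjusted p = 0.0768). With that covariate Cyp2c23, outside the named members, lost its call as well. In edgeR, which also leaves out tumor 3, the fall was smaller by over 1.5 times in fold for Cyp2d22 (-2.29), Cyp4v3 (-2.81), Cyp4a32 (-4.57) and Cyp4f15 (-4.77), and larger for Cyp1a1 (-6.70), while the rise of Cyp27b1 was larger (4.12). The causes were not tested. Equal totals moved the median log2 fold change of all genes from 0.04 to 0.24. DESeq2 gave no adjusted p for Cyp27a1 and Cyp26b1. No paired analysis was possible because the labels give the groups no shared numbers. Members at a few reads are limited by depth.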
